A study of Mus musculus with 18 samples.

Results

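CD4+ T cells that met a middle amount of antigen were compared with cells that met the least and the most. The cells were naive CD4+ T cells of TCR transgenic 5CC7 mice, taken from spleen and lymph node and activated for 4 days on P13.9 antigen-presenting cells, a fibroblast line, that had been loaded with the peptide pPCC. The middle doses were 0.1 and 1.0 µM pPCC and the end doses were 0.01 and 10 µM, each with 3 libraries labelled A to C, so 6 libraries stood against 6 out of 18 in the series. The other 6 libraries, 3 of P13.9 cells alone and 3 of naive T cells, entered only as a reference level. All 12 activated libraries share the transgenic receptor, the P13.9 cells and the day of harvest, and differ by peptide dose. The labels do not say whether the 3 libraries of a dose came from separate mice or cultures, so the p-values measure only the spread between these libraries, which may be technical. The comparison asks which genes responded to signal strength in a way that a test for a steady rise or fall with dose would miss.

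A T cell reads the amount of peptide on a presenting cell through its T cell receptor, and the strength of that signal is known to steer CD4+ T cells among helper fates. The transcription factor T-bet, encoded by Tbx21, directs T helper 1 cells, and GATA3, encoded by Gata3, directs T helper 2 cells. Signal strength also sets the glucose uptake and growth of activated T cells, and the SOCS proteins it induces damp cytokine signaling.

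The named genes of an activated library held 156941 to 732987 reads, recovered from the deposited values, far fewer than the sequencing depth that the labels state. The shallowest of them was 0.1 µM B, and 1 read was worth 0.167 to 0.872 units of normalized value across the 12 libraries. The 10 T cell markers summed to 407 to 489 normalized units at the middle doses, to 251 to 287 at 0.01 µM and to 423 to 468 at 10 µM, and each had reads in the activated libraries. B cell, NK cell and CD8 T cell markers each summed to at most 2.15 units in any activated library, and the 11 of 12 myeloid and dendritic cell markers in the table to 9.25 to 29.2 units. The naive libraries were shallower, with 27784 to 97752 reads in named genes and 2.17 to 6.55 units per read. Their NK cell markers summed to 23.4 to 28.2 units and their myeloid and dendritic cell markers to 105 to 165. A naive mean is thus a coarse reference and may include RNA of other cells. Fibroblast transcripts were highest at 0.01 µM. The median level of 7 fibroblast markers, as a percent of their level in P13.9 cells alone, was 34.4 ± 11.1 (SD, n = 3) with 0.01 µM of peptide and 10.0 ± 7.69 with 0.1 µM. It was 4.50 ± 1.38 with 1.0 µM and 1.84 ± 0.680 with 10 µM, and naive cells had 1.41 ± 2.44. Within 0.1 µM, library C stood at 18.9% and the others at 5.46% and 5.68%. The low end dose thus carried the most fibroblast RNA, and the part of this RNA in each difference from 0.01 µM was measured only by the subtraction given beside the results. In bulk RNA, fewer cells of a type and less RNA per cell cannot be told apart.

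**Figure D1:**
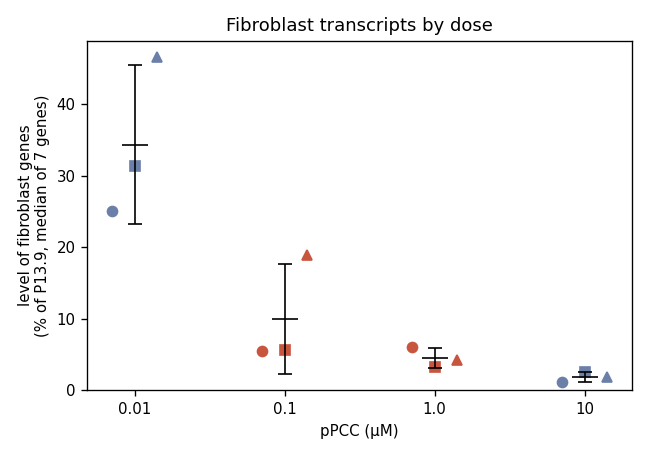
Level of fibroblast genes in each activated library, as a percent of the level in P13.9 cells alone (vertical axis; median of 7 genes), by pPCC dose in µM (horizontal axis). Circles, squares and triangles are libraries A, B and C, red for the middle and blue for the end doses, and bars are mean ± SD; the 3 libraries at 0.01 µM lie at 25.1% to 46.6% and those at 10 µM at 1.15% to 2.51%.

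Of 5897 genes that reached 5 normalized units in 3 or more of the 12 libraries, 601 (10.2%) differed between the mean of the middle doses and the mean of the end doses at an adjusted p below 0.05 in limma. The middle doses were higher for 411 genes (6.97%) and lower for 190 (3.22%). Such a difference can come from 1 end dose alone, so a gene was called a true peak only where the middle mean lay above both end-dose means, and a true trough only where it lay below both. Among the 411 higher genes, 378 (92.0%) were true peaks, where 53.0% of all genes with a higher middle mean had that shape. Among the 190 lower genes, 146 (76.8%) were true troughs, against 41.0% of all genes with a lower middle mean. The call and the shape rest on the same differences, so a larger share among the calls follows in part from the selection. The shape itself needs no tested difference from either end dose. Both middle doses lay beyond both end doses for 351 of the higher and 129 of the lower genes. The count of 601 was 369 without 10 µM C, 384 without 0.01 µM B, 399 without 0.01 µM A and 902 without 1.0 µM B. It was 69 when the 3 naive libraries joined the fit. After the fibroblast share was subtracted, 284 of the 601 genes were still called with rescaling of the libraries and 430 without.

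The 2 sides of the peaks were unequal. The middle doses differed from 0.01 µM in 1964 genes (33.3%) and from 10 µM in 223 genes (3.78%), by limma with adjustment over all genes. The first count was 1298 without 0.01 µM B, and the second was 69, 106 and 143 without 10 µM A, B and C. The 411 higher genes lay a median 0.86 log2 units above 0.01 µM and 0.35 above 10 µM. Of them, 319 passed the test on the 0.01 µM side alone, 20 on the 10 µM side alone, 60 on both sides and 12 on neither. The 190 lower genes differed by a median -0.97 log2 units from 0.01 µM and -0.34 from 10 µM, and 13 of them passed on both sides. The level in P13.9 cells exceeded the mean of the activated libraries for 16.8% of the higher genes and 75.3% of the lower genes, against 49.6% of all genes. Most calls thus had their larger difference on the side of the dose with the most fibroblast RNA, whose part in them was not tested gene by gene. No gene differed between 1.0 and 0.1 µM (0.0% called in limma, and 0 in edgeR and in DESeq2), although 393 had an unadjusted p below 0.05.

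A stricter test required the middle doses to differ from 0.01 µM and from 10 µM in the same direction, taking the larger p of the pair and adjusting it over all 5897 genes. By this two-end test 24 genes (0.407%) peaked and 5 (0.0848%) had a trough, beside 212 and 78 at an unadjusted p below 0.05. For all 29 the 6 middle libraries did not overlap the 6 end libraries. Across all genes such separation was found for 114 higher (1.93%) and 41 lower genes (0.695%). The 29 were picked by the two-end test on these same libraries, so their separation does not check it independently. The count of 24 moved with the libraries used: leaving out any 1 library at 10 µM gave 9 to 11 peaks, any 1 at 0.01 µM gave 12 or 13, and 0.1 µM A gave 15. Leaving out 0.1 µM C, the middle library with the most fibroblast RNA, gave 21, and leaving out the shallow 0.1 µM B also gave 21. The troughs numbered 1 to 3 in each of these and 5 without 1.0 µM B. With the naive libraries in the fit 1 peak, Gzma, and no trough were called. After the fibroblast share was subtracted from every value and the libraries were rescaled, all 24 peaks and 5 troughs kept their direction against both ends. Of these 29, Gzma was then called (adjusted p = 0.000111) and the other 28 were not. After subtraction with rescaling, the smaller of the differences from the end doses was at least as large as before for 14 of the 29. Examples were Basp1 (1.84 before and 1.92 after), Slc2a3 (1.20 and 1.29) and Nfil3 (0.94 and 1.02). Subtraction without rescaling left them at 1.84, 1.20 and 0.93, so their increase came with the rescaling step. For 5 the smaller difference was below 0.5 of its size after subtraction with rescaling. Igfbp4 went from 0.64 to 0.16, Id2 from 0.95 to 0.40 and Eeig1 from 0.83 to 0.38, besides Hsph1 and Mif4gd. Without rescaling, Igfbp4 stood at 0.64, Id2 at 0.99, Eeig1 at 0.96 and Mif4gd at 0.68. The fall in these genes thus came with the rescaling step, while Hsph1 also shrank without it.

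**Figure D2:**
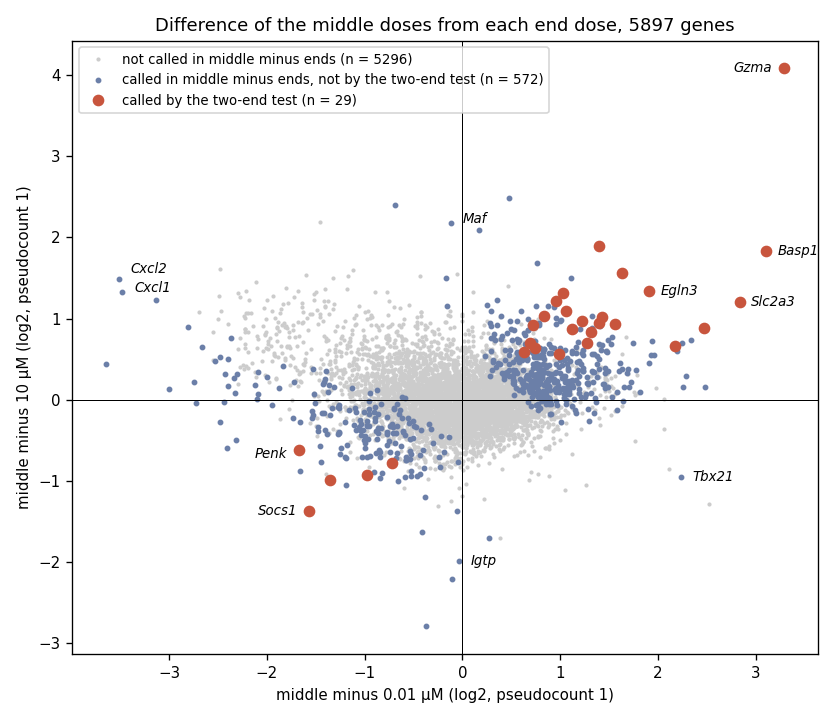
Difference of the middle doses from 0.01 µM (horizontal axis, log2) and from 10 µM (vertical axis, log2) for 5897 genes, on values plus a pseudocount of 1; each point is a gene. Peaks lie to the upper right and troughs to the lower left, and the 29 genes called by the two-end test (red) are fewer than the 572 called only in the mean comparison (blue), many of which lie close to 0 on the vertical axis.

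Gzma, the gene of the serine protease granzyme A of cytotoxic granules (13:113093824-113100981 in GRCm38, the assembly also called mm10), had the largest peak. At 0.01 µM it stood at 8.71, 8.35 and 7.42 normalized units in libraries A, B and C. It then stood at 74.1, 88.9 and 102 at 0.1 µM and at 122, 82.2 and 70.1 at 1.0 µM, and returned to 3.11, 5.82 and 4.21 at 10 µM. The lowest middle library was thus far above the highest end library. On the log2 scale the middle doses exceeded 0.01 µM by 3.29 ± 0.19 (SE) and 10 µM by 4.08 ± 0.19, with a two-end adjusted p of 5.7e-09 in limma. The naive libraries, which also held NK cell markers, averaged 26.5 ± 13.2 units (SD, n = 3), and P13.9 cells averaged 1.25. Gzmb, the related granzyme B gene, also had its highest means at the middle doses (26.1 and 19.0 against 3.54 at 0.01 µM and 12.7 at 10 µM), but its difference from 10 µM (0.74, adjusted p = 0.0919) did not pass. Of 9 tested cytotoxic granule genes, 3 rose in the middle-against-ends comparison, Gzma, Gzmb and the cystatin gene Cst7 (33.3%, beside 6.97% of all genes), all as true peaks, and none fell. The list's median difference was 0.01, beside -0.03 for all genes tested. Cst7 was called after subtraction of the fibroblast share without rescaling (limma adjusted p = 0.0148) but not with it (0.262).

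Basp1, which encodes a protein of the inner plasma membrane that binds actin-regulating lipids (15:25363277-25413764), followed. It stood at 3.68, 3.48 and 5.06 at 0.01 µM and at 8.76, 10.96 and 14.2 at 10 µM. Its middle libraries held 54.3, 27.0 and 33.5 at 0.1 µM and 26.2, 71.9 and 60.6 at 1.0 µM. The ranges did not overlap, and the middle libraries themselves varied widely. The middle doses exceeded 0.01 µM by 3.10 and 10 µM by 1.84 log2 units (SE 0.27 each, two-end adjusted p = 0.00256), and leaving out any of the 12 libraries kept the call. Other peaks near the membrane and the actin skeleton were S100a6 and Anxa2, a calcium-binding protein and a calcium-dependent membrane binder, Crip1, a small LIM-domain protein, and Cotl1, which binds filamentous actin. The calls of Crip1, Anxa2 and Cotl1 were kept in 8, 6 and 3 of 12 leave-outs. S100a6 had the highest normalized values of the peaks, 518, 470 and 378 at 0.1 µM and 432, 470 and 456 at 1.0 µM. Its end libraries held 186, 238 and 242 at 0.01 µM and 175, 178 and 189 at 10 µM. Its level in P13.9 cells, 657 on average, was above that at every dose. On the values as deposited, S100a6 had a two-end adjusted p of 0.000126 in limma. After the fibroblast share was subtracted, its smaller difference was 1.32 with rescaling and 1.24 without, and it was called in neither. The part of fibroblast RNA in its level at 0.01 µM was not tested. Anxa2, Npc2 and Glul were the other peaks whose P13.9 level exceeded their level at 0.01 µM.

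**Figure D3:**
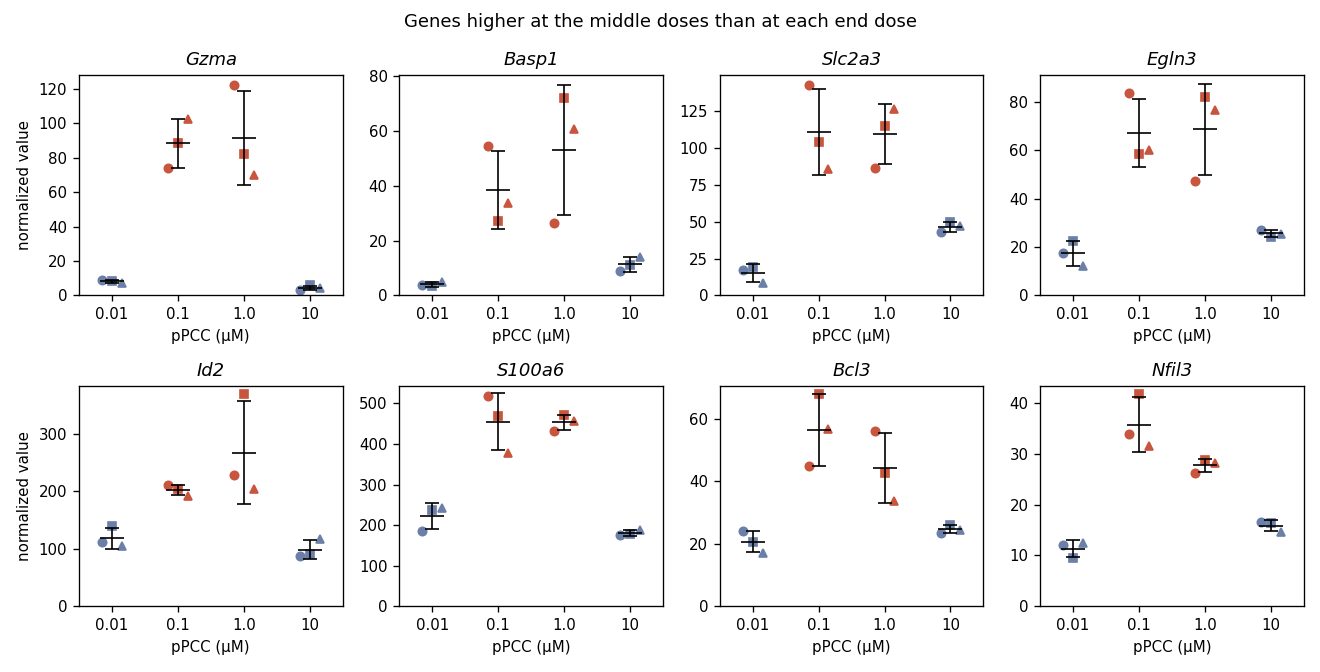
Normalized value (vertical axis, linear, from 0) by pPCC dose in µM (horizontal axis) for 8 genes that peaked by the two-end test. Circles, squares and triangles are libraries A, B and C, red for middle and blue for end doses, and bars are mean ± SD (n = 3); in each panel every red point lies above every blue point.

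Some transcriptional regulators were among the peaks. Id2, an inhibitor of E-protein transcription factors that favours effector over memory fates, read 111, 138.9 and 105 at 0.01 µM and 87.0, 91.5 and 117 at 10 µM. It read 211, 203 and 192 at 0.1 µM and 228, 369 and 204 at 1.0 µM, where library B was far above the others. The middle doses exceeded 0.01 µM by 0.95 and 10 µM by 1.22 log2 units (SE 0.16 each, two-end adjusted p = 0.00633). The call was lost without 0.01 µM A or without 0.01 µM C, and kept without 1.0 µM B. Id3, its relative linked to memory and follicular fates, went the other way, with means of 1.85, 2.93, 2.18 and 10.3 units from the lowest to the highest dose. It was called lower in the middle (-0.72, adjusted p = 0.0493), but only 10 µM stood apart, so it was no trough, and the call was kept in 2 of 12 leave-outs. Nfil3, a basic leucine zipper repressor, averaged 11.3 ± 1.61, 35.7 ± 5.43, 27.8 ± 1.33 and 15.9 ± 1.16 units (SD, n = 3) over the rising doses, and Bcl3, an atypical IκB protein that works with NF-κB in the nucleus, 20.6 ± 3.37, 56.5 ± 11.6, 44.3 ± 11.2 and 24.7 ± 1.30. Both passed the two-end test (adjusted p = 0.00414 and 0.0098, kept in 11 and 9 of 12 leave-outs). Their highest mean was at 0.1 µM and that of Id2 at 1.0 µM, but no gene passed a test between those doses.

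Sugar uptake and oxygen-response genes formed another group. Slc2a3, the glucose transporter GLUT3 (6:122727809-122802363), stood at 17.4, 19.5 and 8.43 at 0.01 µM and at 42.6, 49.7 and 46.9 at 10 µM. In the middle it stood at 143, 104 and 85.3 at 0.1 µM and at 86.6, 115 and 126 at 1.0 µM, above every end library. Its excess was 2.84 log2 units over 0.01 µM and 1.20 over 10 µM (SE 0.21 each, two-end adjusted p = 0.0098). The call was lost without any 1 of the 3 libraries at 10 µM. Egln3, a prolyl hydroxylase that marks hypoxia-inducible factor for breakdown and is itself induced by it (12:54178981-54203874), read 17.8, 22.5 and 12.1 at 0.01 µM and 27.1, 24.3 and 25.5 at 10 µM. It read 83.5, 58.4 and 60.1 at 0.1 µM and 47.2, 82.2 and 76.5 at 1.0 µM (two-end adjusted p = 0.00256, kept without any 1 library). Ero1a, an oxidase of disulfide formation in the endoplasmic reticulum, averaged 21.0, 55.5, 54.5 and 29.8 units over the rising doses (adjusted p = 0.0354, kept in 4 of 12 leave-outs). Ddit4, an inhibitor of mTORC1 induced by stress and low oxygen, averaged 39.5, 166, 203 and 116 (adjusted p = 0.0389, kept in 3 of 12).

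The 250 bases before the transcript starts of Egln3, Ero1a and Ddit4 are shown because all are known oxygen-response genes and peaked together, with the core letters of the hypoxia-inducible factor element in capitals. They come from RefSeq on GRCm38 and read 5′ to 3′ on the gene's own strand, which is the minus strand for each (Egln3 at 12:54203875-54204124, Ero1a at 14:45318573-45318822 and Ddit4 at 10:59951771-59952020). Capitals mark ACGTG or GCGTG on either strand, so that a match on the other strand appears reversed and complemented.
Egln3: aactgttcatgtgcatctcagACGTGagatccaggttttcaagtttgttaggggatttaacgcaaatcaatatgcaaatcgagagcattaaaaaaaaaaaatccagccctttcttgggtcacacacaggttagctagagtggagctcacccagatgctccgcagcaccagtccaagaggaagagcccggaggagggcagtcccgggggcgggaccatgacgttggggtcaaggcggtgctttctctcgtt
Ero1a: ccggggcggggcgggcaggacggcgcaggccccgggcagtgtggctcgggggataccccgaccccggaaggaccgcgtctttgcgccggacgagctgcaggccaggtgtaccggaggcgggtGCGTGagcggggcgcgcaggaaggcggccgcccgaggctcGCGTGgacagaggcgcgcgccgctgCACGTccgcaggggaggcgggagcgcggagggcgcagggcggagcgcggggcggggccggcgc
Ddit4: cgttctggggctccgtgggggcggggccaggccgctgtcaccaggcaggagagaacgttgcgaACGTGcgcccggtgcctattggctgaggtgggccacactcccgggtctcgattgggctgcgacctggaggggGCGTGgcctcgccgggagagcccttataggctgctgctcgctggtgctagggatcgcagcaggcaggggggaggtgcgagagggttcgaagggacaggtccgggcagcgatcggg
Egln3 had 1 match to ACGTG and none to GCGTG, Ero1a had 1 and 2, and Ddit4 had 1 of each. In the same window of 32851 promoters ACGTG was found in 16.6%, GCGTG in 28.2% and at least 1 of them in 38.6%. Of the 24 peaks, 20 had a promoter in the table and 8 of those held a match. The hypoxia list as a whole, whose members were picked for this regulation, had a match in 14 of 17. A match is letters in a window and not a measured site.

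Of 18 tested hypoxia-response genes 9 rose in the middle-against-ends comparison and none fell, beside the 6.97% of all genes that rose. All 9 were true peaks, but only Egln3 and Ero1a passed the two-end test. Bnip3, a mitochondrial autophagy receptor, averaged 12.1, 35.4, 41.0 and 22.2 units over the rising doses. Its difference from 10 µM, 0.69, had an adjusted p of 0.104. Ankrd37, an ankyrin-repeat protein, averaged 5.38, 26.1, 21.8 and 16.04. Of 21 tested glycolysis genes 18 rose and none fell, with 14 true peaks. Their median difference was 1.35 log2 units from 0.01 µM but 0.15 from 10 µM, beside -0.03 and 0.01 for all genes. Of the 21, 20 were called higher than 0.01 µM and 1 higher than 10 µM, beside 963 and 163 of all 5897 genes. Slc2a1, the transporter GLUT1, averaged 17.9, 59.0, 60.2 and 47.1 units over the rising doses, and Slc16a3, the lactate exporter MCT4, 4.13, 26.2, 31.4 and 24.5. The hexokinase gene Hk2 averaged 22.9, 44.5, 56.5 and 35.6, and the phosphofructokinase gene Pfkp 29.2, 82.9, 82.9 and 74.7. The aldolase gene Aldoa averaged 59.0, 186, 204 and 173, and the triosephosphate isomerase gene Tpi1, with 37.7, 111, 128 and 119, was no peak. Slc2a3 was the 1 glycolysis gene called by the two-end test. Several glycolysis genes have pseudogene copies that share reads, and how the counting split them is not given in the sources used here. Oxidative phosphorylation had 3 of 31 genes higher, near the share of all genes, and a median difference of 0.07.

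The remaining peaks had varied roles. Npc2 and Gm2a carry lipids in the lysosome and averaged 87.4, 207, 218 and 131 units and 10.8, 22.2, 25.3 and 10.6 units over the rising doses. Both calls were kept without any 1 library, as was that of Eeig1 (47.6, 92.8, 79.0 and 41.4). Acp5, a lysosomal acid phosphatase, averaged 5.73, 20.3, 18.0 and 9.45, and Glul, which makes glutamine, 20.7, 36.3, 33.6 and 18.2, below its level of 49.8 in naive cells. For the other 23 peaks the middle mean was above the mean of the shallow naive libraries. Ltb4r1, a receptor for the chemoattractant leukotriene B4, averaged 2.77, 9.78, 8.19 and 1.69, and Kremen2, a co-receptor that inhibits Wnt signaling, 1.21, 5.00, 7.08 and 1.30. These were the lowest peaks in normalized value. None of their end libraries reached 5 units, so both passed the filter through the middle libraries alone, which favours a peak. Igfbp4, which binds insulin-like growth factors, averaged 118, 198, 200 and 127, Cmtm7, a membrane protein with a MARVEL domain, 14.9, 85.0, 90.3 and 48.8, and Mif4gd, a translation factor partner, 31.6, 49.6, 53.9 and 31.3. Snord13, a small nucleolar RNA at 8:31149861-31149958, averaged 32.6, 94.6, 91.5 and 43.5 units. Several of these calls were less firm. Glul was kept in 1 of 12 leave-outs, and Cmtm7, Kremen2 and Snord13 in 3 each. Acp5 was kept in 4, Mif4gd in 6, and Igfbp4 and Ltb4r1 in 9 each. In 16 of the 24 peaks the mean at 0.01 µM was below that at 10 µM.

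The 5 troughs included 2 inhibitors of cytokine receptors. Socs1, which blocks JAK kinases (16:10783808-10785536), stood at 13.4, 13.91 and 14.8 at 0.01 µM and at 10.4, 12.7 and 13.4 at 10 µM. It fell to 4.57, 3.49 and 6.63 at 0.1 µM and to 3.67, 3.01 and 3.69 at 1.0 µM, so the highest middle library lay below the lowest end library. The middle doses differed by -1.57 ± 0.21 (SE) log2 units from 0.01 µM and by -1.37 ± 0.21 from 10 µM (two-end adjusted p = 0.00289), and no left-out library ended the call. These levels rest on 35 and 28 reads in all at 0.1 and 1.0 µM. Socs2, which dampens growth hormone and STAT5 signaling (10:95383903-95417321), stood at 18.6, 14.8 and 14.5 at 0.01 µM and at 13.8, 9.59 and 13.2 at 10 µM. The middle libraries held 3.35, 4.36 and 5.80 at 0.1 µM and 6.30, 7.69 and 7.07 at 1.0 µM, again with no overlap. Its two-end adjusted p was 0.0303, and the call was kept in 3 of 12 leave-outs. P13.9 cells averaged 1.26 units of Socs1 and 9.33 of Socs2, below the levels at both end doses.

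**Figure D4:**
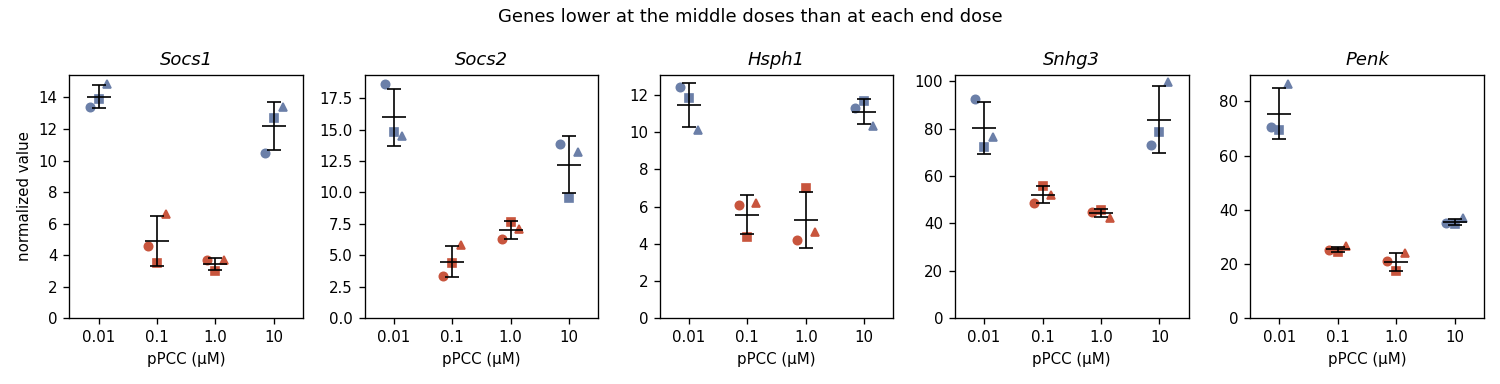
Normalized value (vertical axis, linear, from 0) by pPCC dose in µM (horizontal axis) for the 5 genes with a trough by the two-end test. Circles, squares and triangles are libraries A, B and C, red for middle and blue for end doses, and bars are mean ± SD (n = 3); every red point lies below every blue point in each panel.

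Penk, the precursor of enkephalin peptides, averaged 75.5 ± 9.47, 25.4 ± 1.06, 20.8 ± 3.30 and 35.6 ± 1.15 units over the rising doses (SD, n = 3). Its trough was deep on the 0.01 µM side (-1.67) and shallow on the 10 µM side (-0.62, two-end adjusted p = 0.047). Snhg3, a long non-coding RNA that hosts a small nucleolar RNA, averaged 80.3, 52.1, 44.3 and 83.8 units over the rising doses (adjusted p = 0.0102). Hsph1, a heat-shock chaperone, averaged 11.4, 5.56, 5.28 and 11.1 (adjusted p = 0.047), and its level in P13.9 cells, 20.2, was above that at every dose. Subtracting the fibroblast share with no rescaling turned its smaller difference to 0.08, and only Socs1 kept its call in every leave-out among these 5. Of 18 tested genes of cytokine signaling and feedback, 3 fell, Socs1, Socs2 and the survival gene Bcl2l1, all as true troughs (16.7%, beside 3.22% of all genes), and 1 rose (5.56%, beside 6.97%), the interleukin 21 receptor gene Il21r (20.9, 30.0, 37.5 and 23.5 units). Il21r was called after subtraction of the fibroblast share without rescaling (limma adjusted p = 0.0155) but not with it (0.216). Tnfsf8, the CD30 ligand gene, had a trough shape at 5.65, 1.26, 2.598 and 4.91 units, with an adjusted p of 0.0527 against 10 µM. No middle library of Tnfsf8 reached 5 units, so it passed the filter through its end libraries alone.

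The helper-fate regulators were mostly ordered by dose and were not peaks. Tbx21 read 1.17, 0.927 and 1.01 units at 0.01 µM and 17.2, 19.2 and 16.1 at 10 µM. Between them lay 9.76, 5.23 and 8.70 at 0.1 µM and 7.87, 12.4 and 8.92 at 1.0 µM, with no overlap with either end. It was called higher in the middle (0.64, adjusted p = 0.0333), where the log2 mean of the ends was the reference, and the call was kept in 3 of 12 leave-outs. Against 10 µM its difference was -0.95 (adjusted p = 0.0202). Gata3 averaged 81.6, 71.0, 62.0 and 36.3 units over the rising doses and did not pass (0.27, adjusted p = 0.159). Maf, a transcription factor of T helper 2 and other interleukin-producing cells, read 22.8, 18.8 and 15.2 at 0.01 µM and 3.39, 2.06 and 3.83 at 10 µM. The middle libraries, at 14.02, 14.8 and 18.6 with 0.1 µM and 19.4, 25.1 and 13.5 with 1.0 µM, overlapped those at 0.01 µM. It was called higher in the middle (1.03, adjusted p = 0.00108), although only 10 µM stood apart. Rgs1, a regulator of G-protein signaling, and Batf, a partner of IRF4, were likewise apart at 10 µM, and Epas1, an oxygen-regulated transcription factor, averaged 21.6, 13.6, 13.2 and 1.73. Of T helper 1 genes 1 of 9 rose (11.1%) and of T helper 2 genes 3 of 8 (37.5%), beside 6.97% of all genes, and the single true peak among them was Nfil3. Il2ra, Irf4 and Il13 were not called, at differences of -0.04, -0.05 and -0.13, and Ifng, Il4 and Bcl6 were below the filter on low values.

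Prdm1, which encodes the effector regulator Blimp-1, had the shape of a peak at 3.44, 6.34, 6.76 and 1.37 units over the rising doses. No end library of Prdm1 reached 5 units, so the gene passed the filter through its middle libraries alone, which favours that shape. It rose in the middle-against-ends comparison (1.22, adjusted p = 0.00209) but not by the two-end test (adjusted p = 0.654). Of 12 effector fate regulators 5 rose (41.7%, beside 6.97% of all genes) and none fell. Prdm1, Myb and Ikzf1 were true peaks, while Batf and Bhlhe40, a transcription factor of cytokine production, were not. After subtraction of the fibroblast share with rescaling, only Prdm1 of these was still called. Myb, Ikzf1, Batf and Bhlhe40 had limma adjusted p of 0.173, 0.367, 0.322 and 0.128. Without rescaling all were called. Of 13 homing receptors and integrins 5 rose (38.5%), all as true peaks, and 1 fell (7.69%, beside 3.22%). Cxcr6, a receptor for CXCL16 in tissues, averaged 10.4 units at 0.01 µM, 16.2 at 1.0 µM and 1.90 at 10 µM, with a difference of 0.48 from 0.01 µM (adjusted p = 0.131) and 2.48 from 10 µM. Cxcr4, the receptor for CXCL12, averaged 3.29, 17.3, 24.7 and 11.6, with the larger difference on the other side. Itga4 and Itgb7, the subunits of the gut-homing integrin, averaged 1.73, 6.52, 7.22 and 3.52 and 9.65, 28.3, 28.4 and 22.3. Like Prdm1, Itga4 passed the filter through its middle libraries alone. Selplg, the selectin ligand gene, averaged 12.1, 29.8, 33.7 and 24.7. Cd44, an adhesion receptor also expressed by fibroblasts (63.8 units in P13.9 cells), fell across the doses from 109 to 31.6 and was no trough. Cxcr3, a receptor of T helper 1 cells, was not called (0.62, adjusted p = 0.0949), with means of 0.0558, 4.46, 6.31 and 13.8.

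Calls in the other direction that were no trough came largely from 1 end. All 5 called inflammatory chemokine genes of 9 tested were lower in the middle (55.6%, beside 3.22% of all genes) and none was a trough. Cxcl1, a neutrophil attractant, averaged 258, 22.4, 21.9 and 8.15 units over the rising doses, and Cxcl2 averaged 151, 15.7, 10.3 and 3.74. Their levels at 0.01 µM were above those in P13.9 cells alone, at 52.9 and 18.4. Ccl7, a monocyte attractant, averaged 60.8, 5.37, 4.06 and 2.65 units, beside 41.3 in P13.9 cells. The actin bundler gene Pls3, at 31.0, 6.86, 4.26 and 2.99, was likewise high in P13.9 cells (65.4). Some interferon-stimulated genes were high at the opposite end. Of the 14 tested, 4 were called lower in the middle than at 10 µM, beside 60 of all 5897 genes. Against 0.01 µM 3 were called lower, beside 1001 of all 5897 genes. Igtp, an interferon-inducible GTPase, averaged 12.9, 12.45, 13.5 and 52.5 units, and Gbp2, a guanylate-binding protein, 6.70, 7.21, 5.55 and 31.9. In the middle-against-ends comparison 4 of the 14 fell (28.6%, beside 3.22% of all genes) and none rose, with a median difference of -0.52. Of these 4, 3 met the definition of a trough. In Gbp4, another guanylate-binding protein, the middle differed by -0.85 from 0.01 µM (adjusted p = 0.023) and by -0.97 from 10 µM (adjusted p = 0.0515). Its middle and end libraries did not overlap, and its two-end adjusted p was 0.398. No middle library of Gbp4 reached 5 units, so it passed the filter through its end libraries alone. In Gbp2 the middle differed from 0.01 µM by -0.11 log2 units (adjusted p = 0.762), and Ifitm3, at 33.7 units with 0.01 µM and 9.85 and 10.4 in the middle, differed from 10 µM by -0.28 (adjusted p = 0.579). Ifitm3 averaged 99.3 units in P13.9 cells. Its middle-against-ends difference of -0.97 became -0.15 after subtraction of the fibroblast share with rescaling and -0.10 without. It was called in neither.

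Several other lists had a larger share of members called higher than the 6.97% of all genes. Of 37 cytosolic ribosomal protein genes 14 rose (37.8%), at a median difference of 0.36 that came from the 0.01 µM side (0.53) and not from the 10 µM side (0.05). Of 10 T cell markers 4 rose (40%), Cd3d, Cd3e, Lck and Thy1. Of 20 T cell receptor signaling genes 5 rose (25%), the same 4 and the kinase gene Zap70, and Lck (43.2, 88.5, 85.2 and 105 units) and Zap70 (7.20, 15.9, 16.2 and 16.2) were no peaks. Lck was called in 4 and Zap70 in 10 of 12 leave-outs. The marker list had a median difference of 0.70 from 0.01 µM, the side on which the fibroblast share fell, and -0.06 from 10 µM. Actin cytoskeleton genes rose in 7 of 23 (30.4%), including Coro1a and Tmsb10, and fell in 1 (4.35%, beside 3.22%). S100, annexin and galectin genes rose in 4 of 16 (25%), among them S100a6, Anxa2 and Anxa6. Anxa6, at 91.1, 164, 163 and 162 units, differed from 10 µM by 0.01 log2 units (adjusted p = 0.982). Near the share of all genes were mitosis genes with 1 of 26 higher (3.85%), replication genes with 2 of 26 (7.69%) and cholesterol synthesis genes with 1 of 16 (6.25%). Of 18 nucleolar and Myc-linked genes 3 fell (16.7%, beside 3.22%).

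**Figure D5:**
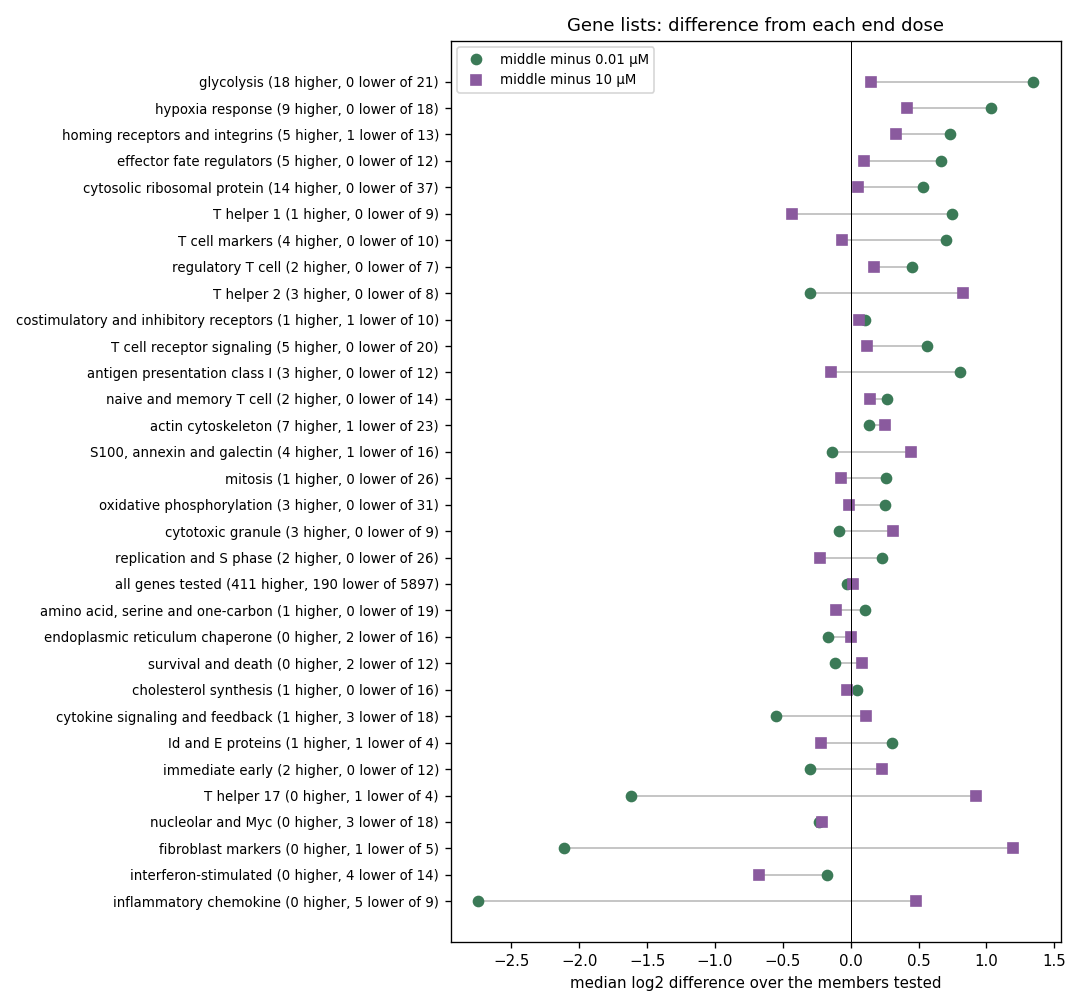
Median log2 difference over the tested members of each gene list with at least 4 of them (horizontal axis), for the middle doses minus 0.01 µM (circles) and minus 10 µM (squares); the list names on the vertical axis carry the counts called higher and lower in the middle-against-ends comparison. Glycolysis stands at 1.35 and 0.15 and hypoxia response at 1.03 and 0.41, while inflammatory chemokines stand at -2.74 and 0.48.

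The library numbers in the labels fall in 2 series, where the doses 0.01 and 1.0 µM share the lower numbers and 0.1 and 10 µM the higher, and what the numbers record is not given. The middle-against-ends comparison takes 1 middle and 1 end dose from each series, so a constant shift between them cancels, while each single end does not have that balance. Within series, 0.1 µM against 10 µM called 133 of 5897 genes and 1.0 µM against 0.01 µM called 1353. The peaks and troughs were picked by the two-end test on these same libraries, so their calls within series do not check it independently. All 24 peaks were called in 1.0 against 0.01 µM, and 21 also in 0.1 against 10 µM. Crip1, Ddit4 and Kremen2 did not pass in 0.1 against 10 µM (adjusted p = 0.0702, 0.113 and 0.0648). The difference of 0.1 from 10 µM was 4.07 log2 units for Gzma and 1.34 for Egln3, and that of 1.0 from 0.01 µM was 3.30 and 1.92. Of the 5 troughs, 3 were called in both series. Hsph1 (-0.90, adjusted p = 0.0544) and Penk (-0.47, adjusted p = 0.13) did not pass in 0.1 against 10 µM. A fit with 1 mean for the middle, 1 for the ends and a term for the series, in place of 1 mean per dose, called 247 genes in the middle-against-ends comparison. It pools the doses within each side as well, so the series alone was not tested by it.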

How the data were processed

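RNA was extracted with TRIzol, and 3′ libraries (Lexogen QuantSeq) were sequenced on a NextSeq 500, per the labels' protocols. The submitters' processing notes list mm10 with STAR 2.6.1d, HTSeq 0.9.1, FastQC 0.11.8 and DESeq2. For annotation and strand the setting was not given in the sources used here. The authors deposited 1 normalized signal per gene and library, reads divided by a median-of-ratios factor, per the file headers. Of 284544 values 99.9996% were whole reads within 1e-05 read after division by the value of 1 read; the exception was Tbx21 in 1 naive library. Of 15808 features 111 had no name and held 1.94% to 5.36% of the reads of an activated library; they and 1 repeated name were left aside. Symbols were matched to RefSeq for 13863 of 15697 names, and by synonym for 30. Depth limits the precision of low values.

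Tests used limma 3.58.1 (R 4.3.3) on log2(value + 1), with 1 mean per dose over the 12 activated libraries, a mean-variance trend, a filter of at least 5 in at least 3 libraries, and Benjamini-Hochberg adjustment at 0.05. Log2 differences are on that scale and understate changes of low genes. The filter could be met by the middle or the end libraries alone, which favours a peak or a trough among low genes. Alternatives were edgeR 4.0.16 (quasi-likelihood, TMM or RLE) and DESeq2 1.42.0 on recovered reads, other pseudocounts and filters, quantile normalization, array weights, 15 T cell libraries, a replicate block, a series term with pooled doses, subtraction of the fibroblast share and leaving out each library. The statistics were tested on simulated data.

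The genes that could be named, not all of which are, followed a rule: helper-fate genes, the 15 strongest peaks and troughs with a mean of at least 10, the 5 strongest higher and lower calls of neither shape, and of each list the 4 smallest p and every called member. Genes with near-identical copies were not named. Glul, Npc2, Mif4gd, Cotl1, Kremen2, Ltb4r1 and Hsph1 lie outside it and were chosen after their values were seen. Members and lists were chosen with earlier results of these data known.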

Additional observations from a re-analysis of the deposited data

Results flagged for a closer look

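Among the 6 middle libraries of each of 85 named genes, 5 held a library far from the others by Dixon's criterion at the 95% level, where chance flags about 1 in 20. Id2 at 1.0 µM B stood at 369 against 192 to 228 in the other 5, and Crip1 in the same library at 140 against 74.6 to 86.4. Cmtm7 at 0.1 µM C stood at 67.5 against 87.2 to 100.2, Ctla4 at 0.1 µM B at 6.97 against 12.6 to 17.1, and Gbp2 at 1.0 µM A at 2.62 against 6.02 to 9.11.

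For 6 genes called by the two-end test the size of the change differed between the series of library numbers (limma, test of the difference, adjusted over all genes). The value of 0.1 minus 10 µM less that of 1.0 minus 0.01 µM was -1.63 for Slc2a3 (adjusted p = 0.00414), -1.82 for Ddit4 (5.37e-05), -0.65 for Npc2 (0.0206), -1.69 for Cmtm7 (0.00116), -1.66 for Basp1 (0.0188) and 1.34 for Penk (0.000615). In each the change was larger between 1.0 and 0.01 µM. Dose and series cannot be told apart in these differences, since each series holds its own pair of doses.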

How the results depend on the processing

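Of the 85 named genes under up to 14 other settings and 12 leave-outs, 1707 values kept their direction and side of the threshold, 431 lost the call, 9 gained it and 1 reversed. The reversal was Hsph1, whose smaller difference became 0.082 when the P13.9 share was subtracted without rescaling, a setting chosen after seeing the data. With 15 T cell libraries in the fit, 69 genes were called in middle minus ends (54 true peaks, 9 true troughs), 1 peak and 0 troughs by the two-end test, 538 against 0.01 µM and 18 against 10 µM; the cause was not tested. Subtraction with rescaling gave 238 true peaks, 1 two-end peak, 0 two-end troughs and 73 calls against 10 µM. Without rescaling it gave 42 true troughs, 3 two-end peaks, 1 two-end trough and 52 calls against 10 µM. Array weights gave 1019 calls, 264 true troughs, 40 two-end peaks, 10 two-end troughs and 479 calls against 10 µM. A mean of at least 20 left 1346 genes tested, with 367 calls, 54 true troughs, 2 two-end troughs, 660 calls against 0.01 µM and 121 against 10 µM. With no filter there were 2 two-end troughs and 2995 calls against 0.01 µM. Quantile normalization gave 15 two-end peaks and 3 troughs, and DESeq2 86 true troughs. Adjusting each end alone gave 58 peaks and 9 troughs. The series term, fitted with pooled middle and pooled end doses, gave 247 calls, 199 true peaks and 48 true troughs. edgeR with TMM called all 24 peaks and 5 troughs.

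Deviations from the dose means correlated over 0.1 in 3 of 18 pairs of libraries with the same letter. The same held for 12 of 36 pairs with different letters. With so few libraries per dose, this cannot show whether a letter marks a shared mouse or culture, which the labels do not say. The replicate block gave 495 calls, 19 two-end peaks and 2 two-end troughs. Leaving out 1 library gave 369 (10 µM C) to 902 (1.0 µM B) calls, with 384 without 0.01 µM B and 399 without 0.01 µM A. It gave 269 to 546 true peaks, 63 to 245 true troughs, 9 to 27 two-end peaks, 1 to 5 two-end troughs, 1298 to 2295 calls against 0.01 µM and 69 to 327 against 10 µM. No leave-out called a gene between 1.0 and 0.1 µM. Of the peaks 7, and of the troughs 1, were called in all 12 leave-outs.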
